A study of Mus musculus with 12 samples.

Results

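The MHC class I antigen presentation pathway was described in bone marrow macrophages through 10 genes chosen by name: the class I heavy chains H2-K1 and H2-D1, the light chain B2m, the peptide transporter subunits Tap1 and Tap2, the loading chaperone Tapbp, the immunoproteasome subunits Psmb8, Psmb9 and Psmb10, and the regulator Nlrc5. All 10 were among the 18467 genes of the expression table, and all 10 passed the filter on low counts that left 12882 genes for testing. RNA was sequenced from macrophages of female Albino B6 mice that were either healthy or had bone metastases after the mouse mammary tumour line E0771 was injected into the caudal artery at 8 weeks of age. The labels give an age of 8 weeks for the mice of every group, healthy ones included. Marrow of femur and tibia was sorted for live cells with CD11b and F4/80, called general macrophages, or with VCAM1, CD163 and CCR3, called niche macrophages. Each population was taken from healthy (normal) and from metastatic marrow, which gave 4 groups of 3 libraries, with replicates from different mice. Whether libraries pooled mice, and whether healthy mice had a control injection, is not given in the sources used here. The 3 libraries of niche macrophages from normal marrow are called A, B and C, because their replicate numbers differ between the table and the sample titles.

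Class I molecules display peptides from inside the cell to CD8+ T cells. Peptides are cut by the proteasome, whose catalytic subunits are replaced by Psmb8, Psmb9 and Psmb10 in the immunoproteasome, then carried into the endoplasmic reticulum by the Tap1 and Tap2 transporter and loaded with the help of Tapbp (tapasin) onto a heavy chain paired with B2m. Interferon gamma is a strong inducer of these genes, and Nlrc5 is a transactivator that acts on class I promoters through a set of adjacent elements, the S, X and Y boxes.

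By the labelled sort the populations were distinct. Vcam1, Cd163 and Ccr3 were higher in niche than in general macrophages in both marrow states, for example Vcam1 at 2161 against 63.4 CPM (the count scaled to the size of its library) in normal marrow and 1166 against 82.4 CPM in metastatic marrow. Macrophage markers were all detected (10 of 10), with summed levels of 8768 to 10257 CPM in niche and 19411 to 22530 CPM in general macrophages from normal marrow. Lyz2 made up most of these sums, with means of 7358 CPM in niche and 19837 CPM in general macrophages. By log2 fold change, 8 of the 10 were higher in niche macrophages. At an edgeR adjusted p under 0.05 (2.47% of all tested genes), 4 were higher and 1, Lyz2, was lower. Transcripts of other cells were present as well: the 10 neutrophil markers summed to 19209 to 20486 CPM in general and 9434 to 11417 CPM in niche macrophages from normal marrow, the 6 monocyte markers to 12815 to 13607 and 5112 to 6584 CPM, the 7 B and plasma cell markers to 147 to 219 and 910 to 1895 CPM, and the 8 erythroid markers to 12.1 to 98.7 and 498 to 820 CPM. No marker of these 5 lists was at 0 in every library of a group. Over the 4 groups, the summed level was 105 to 395 CPM for 8 T and NK cell markers, 0.398 to 86.7 CPM for 6 dendritic cell markers, 7.82 to 242 CPM for 6 eosinophil markers, 0.0999 to 53.1 CPM for 5 megakaryocyte markers, 4.80 to 83.3 CPM for 7 stromal and endothelial markers and 0.151 to 33.8 CPM for the 3 of 5 tumour and epithelial markers in the table. Flt3, Xcr1, Siglech, Cd209a, Gp9, Gp1bb, Cdh5, Lepr and Epcam of these lists were at 0 in all libraries of at least 1 group. Class I genes are transcribed in most nucleated cells, and the part of these other cells in the values below was not tested; in bulk samples, fewer cells of a type and less RNA per cell cannot be told apart.

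In the mouse genome (mm10, GENCODE M21), 7 of the 10 genes lie on chromosome 17 within 1352 kb, in the major histocompatibility complex, from Tapbp (chr17:33915899-33929292, plus strand) and H2-K1 (chr17:33996017-34000347, minus strand) to H2-D1 (chr17:35262730-35267499, plus strand). Between them stand Psmb9 (chr17:34181987-34187764, minus strand), Tap1 (chr17:34187553-34197225, plus strand), Psmb8 (chr17:34197721-34201454, plus strand) and Tap2 (chr17:34203527-34216321, plus strand), packed into 34.3 kb. B2m (chr2:122147686-122153083, plus strand), Psmb10 (chr8:105935735-105938444, minus strand) and Nlrc5 (chr8:94434356-94527272, plus strand) lie elsewhere. Tap1 and Psmb9 share 212 exon bases on opposite strands. Exons of Tapbp share 682 bases, those of Tap2 543, those of Psmb8 186 and those of Nlrc5 43 bases with other annotated genes, and whether counting used the strand is not given in the sources used here, so reads in these stretches cannot be assigned with certainty.

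Promoter windows from RefSeq (GRCm38.p6, 250 bases before to 50 bases after a transcript start) were found for 8 of the 10 genes, and not for Tap2 and Nlrc5. The windows of H2-K1, H2-D1 and B2m are shown because they share an element with the same spacing. Capitals mark TGACG (the core of the X2 box) and, 20 bases further on, ATTGG (the Y box), and in the heavy chain windows, ahead of these, a palindromic kappaB site (the first run of capitals) and a match to TTTCNNTTC (the core of an interferon-stimulated response element; the second run).
H2-K1: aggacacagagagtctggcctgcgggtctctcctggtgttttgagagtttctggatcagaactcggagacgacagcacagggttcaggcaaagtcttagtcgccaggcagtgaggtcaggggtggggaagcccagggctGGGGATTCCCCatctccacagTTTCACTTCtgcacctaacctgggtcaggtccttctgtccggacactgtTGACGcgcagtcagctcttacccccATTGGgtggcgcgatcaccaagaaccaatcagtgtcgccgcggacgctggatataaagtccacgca
H2-D1: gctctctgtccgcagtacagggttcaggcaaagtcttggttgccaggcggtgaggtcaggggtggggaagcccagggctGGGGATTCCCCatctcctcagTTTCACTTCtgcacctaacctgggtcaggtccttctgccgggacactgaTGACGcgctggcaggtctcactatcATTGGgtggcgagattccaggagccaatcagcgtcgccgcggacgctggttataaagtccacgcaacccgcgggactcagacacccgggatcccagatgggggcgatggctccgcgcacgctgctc
B2m: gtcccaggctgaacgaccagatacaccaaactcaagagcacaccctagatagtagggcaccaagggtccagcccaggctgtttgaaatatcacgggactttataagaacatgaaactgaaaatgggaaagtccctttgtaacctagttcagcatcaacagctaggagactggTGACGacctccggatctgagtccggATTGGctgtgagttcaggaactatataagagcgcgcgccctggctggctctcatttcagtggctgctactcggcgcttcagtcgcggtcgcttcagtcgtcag
These windows are chr17:34000298-34000597 (minus strand), chr17:35262844-35263143 (plus strand) and chr2:122147437-122147736 (plus strand). TGACG starts at base 210, 150 and 173 of the window, in that order. Searched on both strands, TGACG followed after 20 bases by ATTGG was present in 27 of 27025 genes with a window (0.0999%), 3 of them members, and in 1 of the 11 other class I heavy chains with a window, H2-M3. The kappaB sequence occurred, letter for letter, in 10 of 32851 windows (0.0304%), and TTTCNNTTC in 7.52%, TGACG alone in 20.8% and ATTGG alone in 37.4%. TGACG and ATTGG at this spacing were not found in the windows of Tapbp, Tap1, Psmb8, Psmb9 and Psmb10. The windows of Tapbp (chr17:33919228-33919527), Psmb8 (chr17:34197945-34198244) and Psmb9 (chr17:34187281-34187580) lie wholly inside the GENCODE genes given above. For these genes, sequence ahead of the GENCODE start was not searched.

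Tap1 and Psmb9 are transcribed away from each other, and their windows share 275 bases. The Tap1 window (chr17:34187306-34187605, plus strand) is shown for that shared stretch, with capitals on CCAAT, which is ATTGG read from the other strand and starts at base 29, and on TGACG, which starts at base 165.
Tap1: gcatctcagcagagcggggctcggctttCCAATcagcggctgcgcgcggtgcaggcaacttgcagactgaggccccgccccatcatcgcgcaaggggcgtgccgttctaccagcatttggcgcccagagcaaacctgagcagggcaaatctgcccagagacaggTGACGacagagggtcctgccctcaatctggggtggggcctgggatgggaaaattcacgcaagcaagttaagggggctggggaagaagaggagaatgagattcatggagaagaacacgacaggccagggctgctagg
The ratio of the Tap1 and Psmb9 transcripts varied between libraries. Replicate 2 of general macrophages from normal marrow had the lowest Tap1 of the 12 libraries (18.2 CPM) together with 17.9 CPM of Psmb9, the highest of its group. Replicate 3 had 98.9 CPM of Tap1 with 0.749 CPM of Psmb9, the latter from 15 counts. Replicates of many other genes also spread widely, as given below, and a link of these levels to the shared window was not tested.

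Library totals were 15042000 to 20777200 counts in general macrophages from normal marrow, 24278100 to 30332400 in those from metastatic marrow, 13688000 to 20492600 in niche macrophages from normal marrow and 18565100 to 21579500 in those from metastatic marrow. The 3 counts taken as a floor corresponded to 0.109 to 0.243 CPM and cover counting error only. Levels of different genes can be compared per kilobase of exon. Over the 12 libraries B2m led with a mean of 619 CPM per kb, followed by H2-D1 with 197, H2-K1 with 177, Tapbp with 50.5 and Tap1 with 28.9 CPM per kb. The remaining means were 13.6 for Psmb10, 11.4 for Psmb9, 10.4 for Psmb8, 9.65 for Tap2 and 4.58 CPM per kb for Nlrc5. In each of the 4 groups the library ranges of B2m and H2-D1, and those of H2-K1 and Tapbp, did not overlap, while every other pair of neighbours in this order overlapped in at least 2 groups. The order of the lower genes changed with the group: Psmb9 lay above Psmb8 and Tap2 in niche macrophages from normal marrow (lowest library 18.6 CPM per kb), and Tap2 lay above both in general macrophages from metastatic marrow (lowest library 10.96 CPM per kb).

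**Figure D1:**
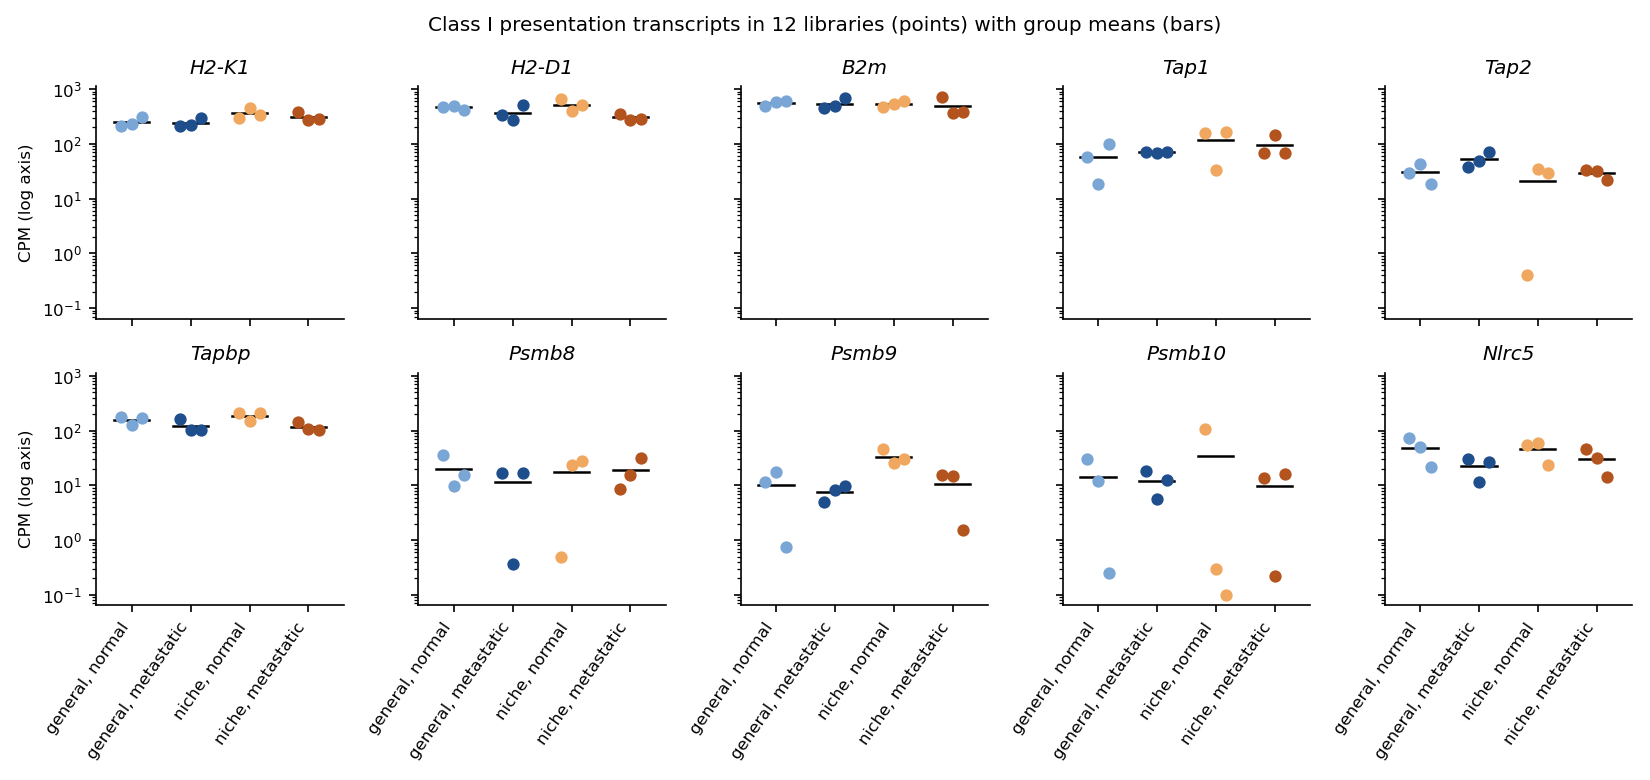
Level of each of the 10 genes in each of the 12 libraries, as CPM on a log axis, by group; each point is 1 library and each bar a group mean. B2m, H2-D1, H2-K1 and Tapbp stay within 2.40-fold from lowest to highest library, whereas Psmb10 runs from 0.1004 to 105 CPM.

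The light chain B2m, without which heavy chains do not fold stably or reach the surface, had group means between 491 and 556 CPM. It was at 487, 573 and 608 CPM in replicates 1 to 3 of general macrophages from normal marrow and at 461, 496 and 677 CPM in those from metastatic marrow. Niche macrophages had 480, 543 and 595 CPM in libraries A to C from normal marrow and 730, 360 and 383 CPM in replicates 1 to 3 from metastatic marrow. The 4 groups overlapped, and replicate 1 of the last group held the highest value of all. The heavy chain H2-K1 was at 215, 234 and 304 CPM (general, normal), 209, 221 and 291 CPM (general, metastatic), 296, 455 and 342 CPM (niche, normal) and 380, 276 and 289 CPM (niche, metastatic). Its highest 3 values were in niche libraries, and each pair of groups compared overlapped. For H2-D1, the values were 477, 499 and 409 CPM (general, normal), 330, 275 and 514 CPM (general, metastatic), 653, 399 and 502 CPM (niche, normal) and 357, 272 and 284 CPM (niche, metastatic). All 3 niche libraries from metastatic marrow lay below all 3 from normal marrow.

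Counts of H2-K1 were not whole numbers (tolerance 0.02) in 10 of 12 libraries, those of H2-D1 in 11 and those of Tapbp in 7, as happens when reads are divided between genes, whereas B2m, Psmb8, Psmb10 and Nlrc5 were whole in all 12. Class I heavy chains are near-identical over long stretches, so the split between H2-K1 and H2-D1 is less certain than their sum.

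The chaperone Tapbp was at 177, 124 and 172 CPM (general, normal), 160, 104 and 104 CPM (general, metastatic), 206, 148 and 208 CPM (niche, normal) and 142, 109 and 102 CPM (niche, metastatic). As for H2-D1, the niche libraries from metastatic marrow all lay below those from normal marrow, here with a narrow gap between 142 and 148 CPM. The transporter subunit Tap1 was at 57.9, 18.2 and 98.9 CPM (general, normal), 72.0, 68.3 and 70.1 CPM (general, metastatic), 159, 33.3 and 165 CPM (niche, normal) and 67.1, 147 and 68.6 CPM (niche, metastatic). Its general libraries from metastatic marrow were nearly equal, while the other 3 groups each held a library more than 2 times above or below another. Its partner Tap2 was at 28.8, 43.6 and 18.8 CPM (general, normal), 37.7, 48.0 and 71.5 CPM (general, metastatic), 0.406, 34.0 and 28.7 CPM (niche, normal) and 33.8, 31.7 and 21.5 CPM (niche, metastatic). Library A of niche macrophages from normal marrow held only 5 counts of Tap2, beside 1963 counts of Tap1.

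Among the immunoproteasome subunits, Psmb8 (the chymotrypsin-like subunit, LMP7) was at 35.3, 9.91 and 15.4 CPM (general, normal), 16.8, 0.362 and 16.9 CPM (general, metastatic), 0.487, 24.01 and 27.7 CPM (niche, normal) and 8.63, 15.7 and 32.2 CPM (niche, metastatic). The 2 lowest libraries held 6 and 8 counts. Psmb9 (LMP2) was at 11.5, 17.9 and 0.749 CPM (general, normal), 4.93, 8.09 and 9.81 CPM (general, metastatic), 45.8, 25.1 and 29.98 CPM (niche, normal) and 15.4, 14.9 and 1.52 CPM (niche, metastatic). All 3 niche libraries from normal marrow were above every other library. Psmb10 (MECL-1) was at 30.5, 11.9 and 0.250 CPM (general, normal), 18.2, 5.60 and 12.4 CPM (general, metastatic), 105, 0.298 and 0.1004 CPM (niche, normal) and 13.4, 0.219 and 16.1 CPM (niche, metastatic). Both its highest library (1293 counts) and its lowest (2 counts) belonged to niche macrophages from normal marrow. The regulator Nlrc5 was at 72.9, 51.1 and 21.9 CPM (general, normal), 30.7, 11.7 and 26.3 CPM (general, metastatic), 55.3, 60.4 and 23.95 CPM (niche, normal) and 46.5, 31.0 and 14.05 CPM (niche, metastatic). Its groups overlapped in every comparison.

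The spread between replicates divided the 10 genes. The within-group SD of log2(CPM + 0.5) was 0.27 for H2-K1, 0.30 for Tapbp, 0.32 for H2-D1 and 0.34 for B2m. Ordered from the smallest, these stand at percentiles 2.36 to 4.98 of the 12882 tested genes, among which the median was 1.62, or 0.42 for the 1880 genes whose mean reached 100 CPM. Nlrc5 (0.80) and Tap1 (0.95) were intermediate. Psmb9 (1.39), Tap2 (1.54), Psmb8 (1.96) and Psmb10 (2.85) spread more widely, Psmb10 at percentile 99.3; genes with a mean of 10 to 50 CPM had a median of 1.78. In these last 4 genes, single libraries fell to 16 counts or fewer although the median count of each gene was at least 200. That was the case for 4 of 10 members (40%) and for 3097 of 7442 tested genes with such a median (41.6%). Both thresholds were chosen after the values were seen. The low libraries differed between genes: library A of niche macrophages from normal marrow for Tap2, the same library and general-metastatic replicate 2 for Psmb8, general-normal replicate 3 for Psmb9, and general-normal replicate 3, niche-metastatic replicate 2 and niche-normal libraries B and C for Psmb10.

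**Figure D2:**
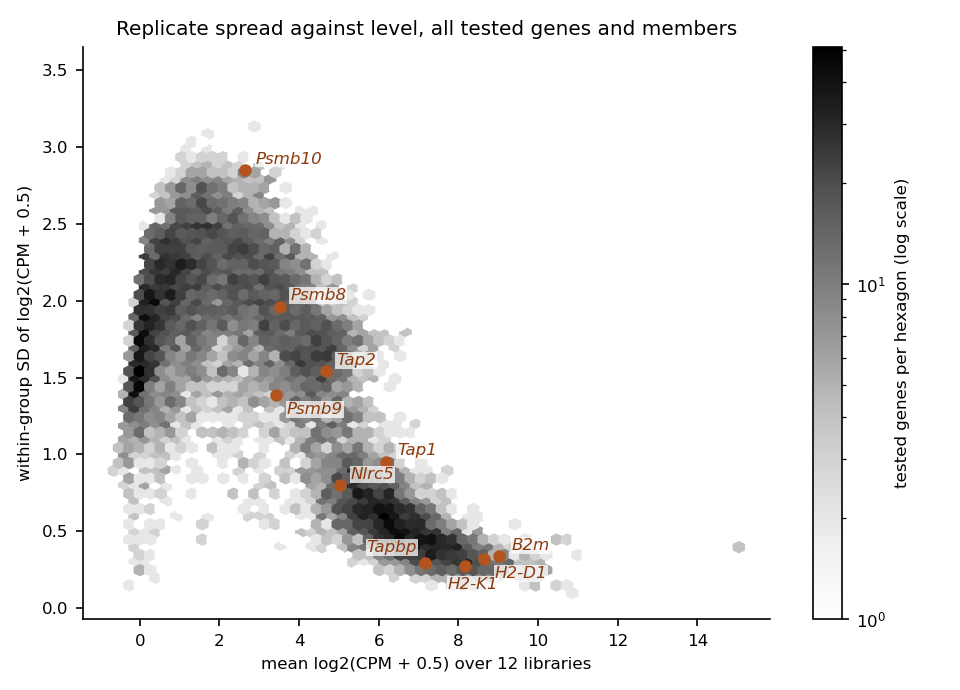
Within-group SD of log2(CPM + 0.5) against mean log2(CPM + 0.5) over 12 libraries; grey hexagons count the 12882 tested genes and points mark the 10 class I genes. H2-K1, Tapbp, H2-D1 and B2m lie at 0.27 to 0.34 and Psmb10 at 2.85.

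The first question was whether niche and general macrophages of normal marrow differ in class I transcripts. By edgeR's quasi-likelihood test with Benjamini-Hochberg adjustment over all genes, 0 of the 10 genes were called at an adjusted p under 0.05, against 2.47% of all tested genes. At an unadjusted p under 0.05 the count was 0 of 10 (19% of all genes), and DESeq2 called 0 of 10 (14.2%). The log2 fold change, niche minus general, was above 0 for 6 of the 10, with a median of 0.21 beside 0.19 over all genes. H2-K1 had 0.54 ± 0.27 (SE; 95% interval -0.03 to 1.11; edgeR adjusted p = 0.285), and stayed between 0.35 and 0.71 over 14 alternative fits. B2m had -0.04 ± 0.27 (interval -0.61 to 0.52), and H2-D1 0.17 ± 0.27 (interval -0.40 to 0.73).

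Tapbp differed by 0.25 ± 0.34 and Tap1 by 1.03 ± 0.62 (interval -0.27 to 2.33; edgeR adjusted p = 0.373). Tap2 (-0.53 ± 1.06), Psmb8 (-0.22 ± 1.54) and Nlrc5 (-0.06 ± 0.83) had estimates smaller than their errors. Psmb9 was the 1 member whose niche libraries all lay above the general ones, a pattern that 10% of all tested genes showed (8.78% the reverse), and its log2 fold change was 1.74 ± 1.49 (interval -1.37 to 4.85; edgeR adjusted p = 0.589). Leaving out 1 library gave Psmb9 1.2 (without general library 3) to 2.46 (without general library 2) and Tap1 0.60 (without general library 2) to 1.65 (without general library 3). The value of Psmb10, 1.30 ± 1.96, rested on library A: without it the log2 fold change was -6.10 (edgeR adjusted p = 0.296).

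In metastatic marrow the same populations were compared, with 0 of 10 genes called by edgeR (0.831% of all genes), 0 at an unadjusted p under 0.05 (8.6%) and 0 by DESeq2 (3.73%). The signs were split, 5 above and 5 below 0, with a median of 0.17 beside 0.04 over all genes. H2-K1 had 0.39 ± 0.27 (interval -0.18 to 0.96; edgeR adjusted p = 0.896), H2-D1 -0.29 ± 0.27 (interval -0.86 to 0.27) and B2m -0.15 ± 0.27 (interval -0.72 to 0.42). Tap2 was the 1 member without overlap, lower in niche macrophages as were 8.85% of all genes (8.34% were higher), with -0.85 ± 1.06 (edgeR adjusted p = 1). The other values were 0.42 ± 0.62 for Tap1, -0.06 ± 0.34 for Tapbp, 0.73 ± 1.54 for Psmb8, 0.48 ± 1.45 for Psmb9, -0.29 ± 1.93 for Psmb10 and 0.41 ± 0.84 for Nlrc5.

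The second question was whether metastasis changes class I transcripts. Within general macrophages 0 of 10 genes were called by edgeR (0.0155% of all genes, 2 genes), 0 at an unadjusted p under 0.05 (5.12%) and 0 by DESeq2 (1.09%). The log2 fold change, metastatic minus normal, was below 0 for 8 of the 10, with a median of -0.27 beside -0.01 over all genes. None of the 10 separated the groups, whereas 7.27% of all genes were higher and 5.64% lower without overlap. H2-K1 (-0.06 ± 0.27; interval -0.63 to 0.51) and B2m (-0.03 ± 0.27; interval -0.60 to 0.54) were close to 0, and H2-D1 (-0.31 ± 0.27; interval -0.88 to 0.26) and Tapbp (-0.36 ± 0.34; interval -1.07 to 0.35) somewhat below it. The regulator Nlrc5 had -1.09 ± 0.84 (interval -2.85 to 0.68; edgeR adjusted p = 1). Tap1 (0.27 ± 0.61) and Tap2 (0.78 ± 1.06) were the members above 0, and Psmb8 (-0.83 ± 1.55), Psmb9 (-0.40 ± 1.45) and Psmb10 (-0.23 ± 1.93) had wide errors.

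Within niche macrophages the test called 0 of 10 genes (edgeR; 0.00776% of all genes, 1 gene) and DESeq2 0 of 10 (7.41%), while 1 of 10 had an unadjusted p under 0.05 (12.7%). That gene was H2-D1, with a log2 fold change of -0.77 ± 0.27 (interval -1.34 to -0.20; edgeR adjusted p = 0.381; DESeq2 adjusted p = 0.0755). Over 14 alternative fits it stayed between -0.93 and -0.51, with adjusted p-values from 0.0755 to 0.671. Tapbp had -0.67 ± 0.34 (interval -1.38 to 0.04; edgeR adjusted p = 0.406) and Psmb9 -1.66 ± 1.48 (interval -4.77 to 1.44; edgeR adjusted p = 0.741). These 3 of 10 were the members whose metastatic libraries all lay below the normal ones, beside 7.11% of all tested genes, and no member lay above (5.63% of all genes).

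The other heavy chain, H2-K1, had -0.21 ± 0.27 (interval -0.78 to 0.36), and B2m had -0.14 ± 0.27 (interval -0.70 to 0.43). Tap1 (-0.34 ± 0.61), Tap2 (0.46 ± 1.05), Psmb8 (0.12 ± 1.54) and Nlrc5 (-0.61 ± 0.84) were within about their own errors of 0. Psmb10 had -1.82 ± 1.99, which again rested on library A: without it the value was 5.58 (edgeR adjusted p = 0.477). The median of the 10 was -0.47 and that of all genes -0.17. The summed level of the 5 sorting antigens (Vcam1, Cd163, Ccr3, Adgre1 and Itgam) was also lower in this comparison. It was 1860 to 3318 CPM in metastatic against 4124 to 4781 CPM in normal marrow. So was the sum of the macrophage markers (5608 to 7038 against 8768 to 10257 CPM), again mostly Lyz2. In contrast, the monocyte markers were at 8559 to 11113 against 5112 to 6584 CPM and the neutrophil markers at 10669 to 11310 against 9434 to 11417 CPM. Their part in the H2-D1 and Tapbp values was not tested.

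The difference of the metastasis effect between populations was tested as an interaction. It called 0 of 10 members and 0% of all genes by edgeR. At an unadjusted p under 0.05 it held 0 of 10 members and 7.89% of all genes, and DESeq2 called 0 of 10 members and 3.18% of all genes. For H2-D1 the effect in niche macrophages minus that in general macrophages was -0.46 ± 0.38 (edgeR adjusted p = 0.826; -0.64 to -0.043 when leaving out a library, the latter without general metastatic library 3), so the lower level in niche macrophages under metastasis was not shown to differ from the change in general ones.

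**Figure D3:**
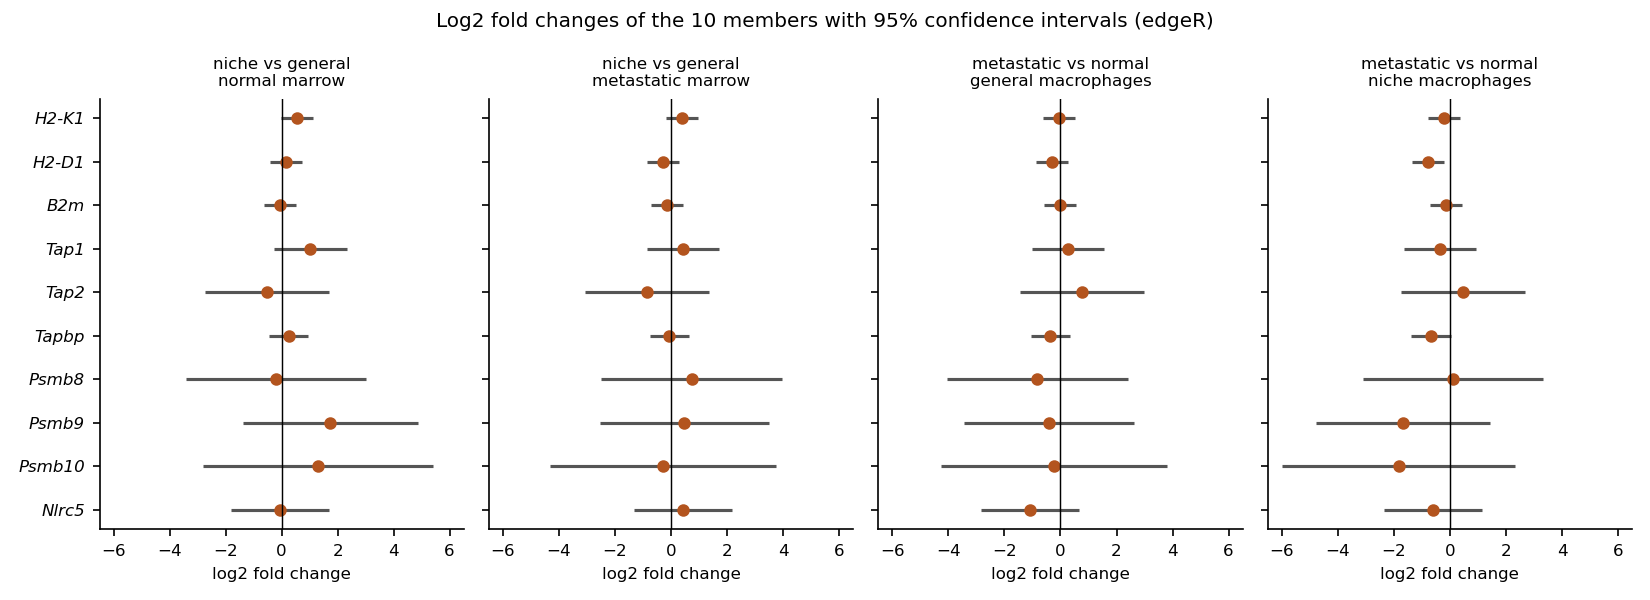
Log2 fold change of each of the 10 genes in the 4 comparisons of 2 groups, with bars for the 95% interval of the edgeR fit. The intervals of H2-K1, H2-D1, B2m and Tapbp are narrow, that of H2-D1 in niche macrophages under metastasis (-1.34 to -0.20) lies below 0, and those of Psmb8, Psmb9 and Psmb10 span several log2 units.

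Heavy chain reads were also summed, since reads shared between H2-K1 and H2-D1 do not affect the sum. The sum was 691 to 733 CPM in general and 844 to 949 CPM in niche macrophages from normal marrow, without overlap. In metastatic marrow it was 496 to 805 CPM and 549 to 737 CPM, which overlapped. Niche libraries from metastatic marrow all lay below those from normal marrow in this sum. The share of H2-K1 in the sum was 31.0, 31.9 and 42.6% (general, normal), 38.8, 44.5 and 36.1% (general, metastatic), 31.2, 53.3 and 40.5% (niche, normal) and 51.5, 50.4 and 50.5% (niche, metastatic). The 3 niche libraries from metastatic marrow were nearly equal, above all general libraries and inside the range of the niche libraries from normal marrow. These sums and shares are descriptions with no test.

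**Figure D4:**
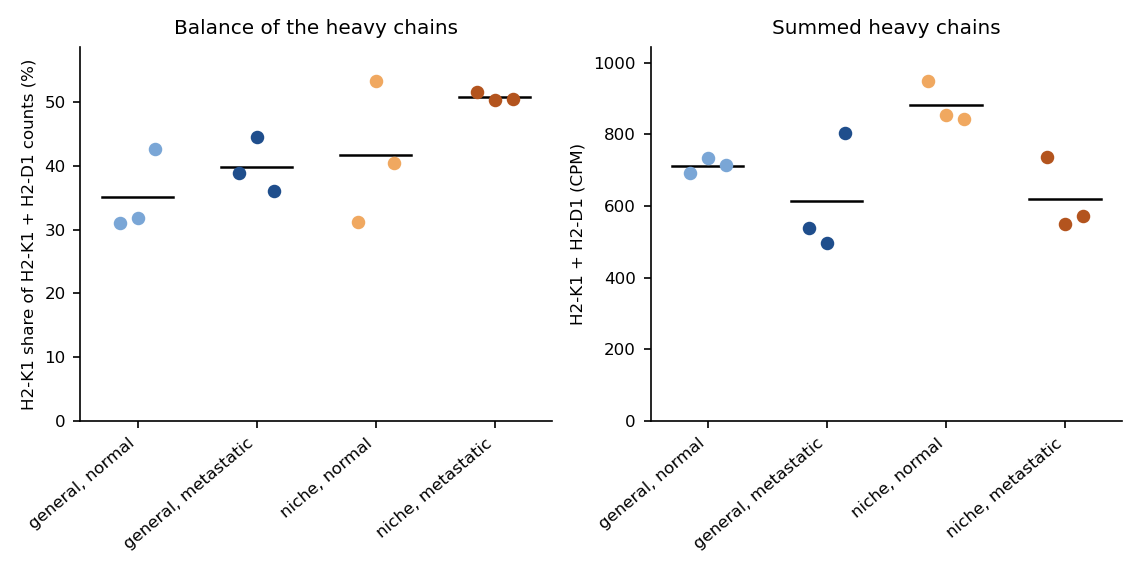
Summed CPM of H2-K1 and H2-D1 and the share of H2-K1 in that sum, in percent, by group; each point is 1 library and each line a group mean. Niche macrophages from metastatic marrow have shares of 50.4 to 51.5%, and those from normal marrow of 31.2 to 53.3%.

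Each immunoproteasome subunit was set against the constitutive subunit it replaces, as the log2 ratio of CPM + 0.5 within a library, which is barely affected by library scaling. Exact two-sided permutation tests of 3 against 3 libraries cannot give a p below 0.1, and of 12 such tests none fell below an adjusted p of 0.6. Psmb9 relative to Psmb6 differed between niche and general macrophages of metastatic marrow by 1.68 (0.20 ± 1.12 against -1.48 ± 0.28, SD, n = 3 each; exact permutation p = 0.1, adjusted p = 0.6), with no overlap. In normal marrow the difference of this ratio was 5.02 (3.81 ± 3.33 against -1.21 ± 1.60, SD, n = 3 each; exact permutation p = 0.2, adjusted p = 0.6), where Psmb6 was at 0.162 and 0.149 CPM in niche libraries A and B and at 29.98 CPM in C. Psmb8 relative to Psmb5 differed between populations by 4.06 in metastatic marrow (exact permutation p = 0.3, adjusted p = 0.72) and by 1.08 in normal marrow (exact permutation p = 0.7). Psmb5 was at 0.148 CPM or less in 2 of the 3 niche libraries in each marrow state, so its ratios rest on a few counts. Psmb10 relative to Psmb7 differed by 0.91 and -1.09 in these comparisons (exact permutation p = 0.8 for each).

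Under metastasis, the ratio of Psmb8 to Psmb5 differed by -2.73 in general and 0.25 in niche macrophages (exact permutation p = 0.2 and 1). That of Psmb9 to Psmb6 differed by -0.27 and -3.61 (exact permutation p = 0.8 and 0.2), and that of Psmb10 to Psmb7 by 0.64 and 2.64 (exact permutation p = 0.9 and 0.5). Single libraries moved these differences by over 1.5 times. Psmb10 to Psmb7 in niche macrophages ran from 0.46 without metastatic library 1 to 4.81 without normal library A, and was 0.87 without normal library C. Psmb8 to Psmb5 in general macrophages ran from -3.59 to -1.30, the latter without metastatic library 2, and was -1.54 without normal library 3. Psmb9 to Psmb6 in niche macrophages ran from -5.52 without normal library C to -2.46 without normal library A.

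**Figure D5:**
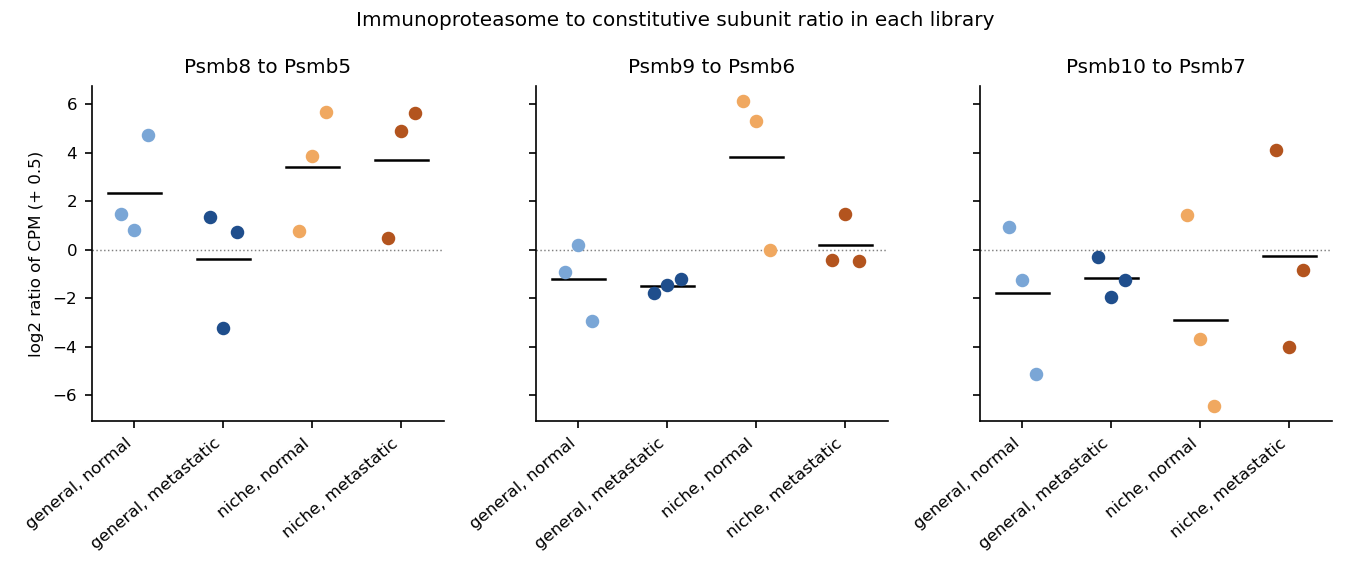
Log2 ratio of CPM + 0.5 of each immunoproteasome subunit to the constitutive subunit it replaces, by group; each point is 1 library and each line a group mean. Psmb9 to Psmb6 runs from -2.94 to 6.13 over the 12 libraries, and the groups of Psmb10 to Psmb7 overlap in every comparison.

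Around the 10 genes, 75 other genes of the class I pathway were listed, of which 70 were in the table and 67 were tested. Niche and general macrophages of normal marrow differed in 1 of them (1.49%, beside 2.47% of all genes), with 41 of 67 above 0 and a median log2 fold change of 0.24. That gene was Irf8, a transcription factor of myeloid cells and of interferon responses, at 130.5 to 206 CPM per library in niche and 39.4 to 60.1 CPM in general macrophages. Its log2 fold change was 1.77 ± 0.46 (edgeR adjusted p = 0.0478). The call was kept in 1 of 6 fits that left out a library, the fit without library B, and in 3 of 8 other alternatives, with adjusted p-values up to 0.213, so each of the other 5 libraries decides it. In the other comparisons 0 of 67 were called by edgeR, with medians of -0.12 (niche against general, metastatic marrow), -0.01 (metastasis, general macrophages), -0.35 (metastasis, niche macrophages) and -0.31 (interaction).

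Of the 12 tested genes among the other class I heavy chains, 0 passed in normal marrow and 8 were above 0, with a median of 0.53. The nonclassical chain H2-Q7 was at 67.2 to 142 CPM in niche and 21.9 to 46.9 CPM in general macrophages, and differed by 1.69 ± 0.62 on the log2 scale (edgeR adjusted p = 0.192; DESeq2 adjusted p = 0.0370). H2-Q6 had 1.98 ± 0.87 (edgeR adjusted p = 0.241). In metastatic marrow H2-Q7 had 1.78 ± 0.62 (edgeR adjusted p = 0.405), again without overlap between groups. Reads of H2-Q6 and H2-Q7, near-identical to each other, may be divided between them.

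Of 9 peptide loading and trimming genes, 0 passed and 8 were above 0, with a median of 0.42. The lectin chaperones Canx (0.82 ± 0.26; edgeR adjusted p = 0.114) and Calr (0.80 ± 0.27; edgeR adjusted p = 0.157) had the smallest p-values. None of 4 cytosolic peptidases passed, Npepps (-0.90) and Tpp2 (0.68) having the smallest p-values, and none of 5 proteasome activators and assembly factors, which were all above 0, among them Psme3 (0.63) and Psme1 (1.35). Psmb5 and Psmb7 (0.52) had the smallest p-values of the 3 constitutive catalytic subunits, and Psma5 and Psma4 of the 11 other core subunits, without passing. In niche libraries A, B and C of normal marrow, Psma5 was at 0.0812, 0.149 and 0.1004 CPM, no more than 3 counts per library, and Psma4 at 0.162, 0.199 and 0.1004 CPM, under 3 counts in A and C. Psmb5 was at 0.0812, 1.19 and 0.0502 CPM there, so no fold is given for these subunits. Of 15 regulators the second after Irf8 was Nfkb1 (0.99 ± 0.48; edgeR adjusted p = 0.269), and of 8 interferon receptor and kinase genes Socs3 and Ifngr2 had the smallest p-values, with 0 called. In the same niche libraries Socs3 was at 0.406, 0.0994 and 0.151 CPM and Ifngr2 at 0.0812, 27.4 and 0.753 CPM, and no fold is given for them either. In niche macrophages under metastasis, Nfkb1 had -1.43 ± 0.49 and Irf8 -1.18 ± 0.46 (edgeR adjusted p = 0.381 for each), both with all metastatic libraries below the normal ones.

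The class II pathway, which presents peptides to CD4+ T cells, was set beside these genes. H2-Aa was higher in niche than in general macrophages by a log2 fold change of 2.06 ± 0.29 in normal and 1.97 ± 0.28 in metastatic marrow, and H2-Ab1 by 2.01 ± 0.32 and 2.49 ± 0.33 (edgeR adjusted p = 0.000255, 0.000671, 0.00120 and 0.000222, in that order). They were the 2 of 7 class II genes called in each state, and both were called in each alternative fit that was run. Their standard errors were close to those of H2-K1, H2-D1 and B2m. Under metastasis, edgeR called 0 of the 7 class II genes in either population. The log2 fold change, metastatic minus normal, was above 0 for 0 of 7 in general macrophages (median -1.28) and for 1 of 7 in niche macrophages (median -1.04).

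The 3 tested genes outside the 10 whose levels followed the mean of these most closely over the 12 libraries were Tpr, Pcyt1a and Ip6k1. The root mean square difference between their centred log2 CPM and that mean was 0.25, 0.28 and 0.28, while the members themselves stood at 0.34 (H2-D1) to 2.29 (Psmb10) from it. The likeness was computed over the same 12 libraries, of both sorts and marrow states and of unequal depth, and is a description.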

How the data were processed

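The authors deposited 1 table of expected counts for 18467 gene symbols in 12 libraries, not normalized, and 75.2% of its values were whole numbers. The submitters' processing notes name mm10, STAR 2.7.3a, Partek, DESeq2 1.40.2 and R 4.3.1, and the annotation, the counting settings and the strandedness are not given in the sources used here. RNA was depleted of ribosomal RNA before library preparation, per the labels' protocols. Counts were rounded, filtered with filterByExpr (12882 genes tested) and scaled by the TMM method. The quasi-likelihood model of edgeR 4.0.16 (R 4.3.3) held 1 mean per group over 12 libraries, and p-values were adjusted over all tested genes by Benjamini-Hochberg. An adjusted p under 0.05 is a call. CPM values use the TMM factors. The common biological coefficient of variation was 1.30. No 2 libraries of a group agreed within sampling noise.

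The 10 members and all gene lists were chosen with earlier results of these data known. Named were the 10 members, and of each pathway list the called genes or the 2 with the smallest p; the names are given for normal marrow only, apart from H2-Q7 in metastatic marrow and Irf8 and Nfkb1 under metastasis in niche macrophages, a narrower choice made after the values were seen. A further 3 genes were named by likeness to the members' mean. Alternatives were DESeq2 size factors, library size only, no filter, a minimum of 10 counts in every library, voom with sample quality weights in limma 3.58.1, DESeq2 1.42.0, removal of 361 haemoglobin, immunoglobulin, mitochondrial and small nucleolar RNA genes, a fit of 6 libraries alone, a replicate block, and leaving out each library. Ratios of subunits were also computed with no added constant and with 2 CPM.

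The fit was tested on simulated counts for niche against general macrophages of normal marrow over 12882 genes. At the dispersions of these libraries, calls were made for 6 of 100 genes with a 4-fold change and 42 of 100 with a 16-fold change, with 4 false calls. At a dispersion of 0.1, 94 and 100 of 100 were called, with 12 false calls.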

Additional observations from a re-analysis of the deposited data

How the results depend on the processing

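No member was called under any of 587 member values from alternative fits. The smallest adjusted p was 0.0755 (DESeq2, H2-D1 in niche macrophages under metastasis), and 52 values had the other sign. Among the members, Psmb10 in library C of niche macrophages from normal marrow (2 counts) was under the floor of 3 counts. The count of calls over all genes changed with the setting as follows, while 0 members were called in each.

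Between niche and general macrophages of normal marrow 318 genes were called, and 1825 by DESeq2, 186 by limma-voom with sample quality weights (limma-voom below), 163 with 6 libraries and 176 to 402 when leaving out a library. In metastatic marrow the 107 calls became 480 (DESeq2), 178 (limma-voom) and 66 to 83 when leaving out a library. For metastasis in general macrophages the 2 calls became 0 with library size only, 5 without a filter, 141 (DESeq2), 23 (limma-voom) and 0 to 0 when leaving out a library. In niche macrophages the 1 call became 0 with DESeq2 size factors, with library size only and with 6 libraries, 3 without a filter and with at least 10 counts in every library, 2 without the removed genes, 954 (DESeq2), 11 (limma-voom) and 0 to 66 when leaving out a library. The interaction's 0 calls became 410 (DESeq2) and 0 to 16 when leaving out a library. The cause of these changes was not tested.

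Scaling by library size only moved the median of all genes from 0.04 to 0.29 (niche against general, metastatic marrow) and from -0.17 to 0.06 (metastasis, niche macrophages), and the members' medians from 0.17 to 0.40 and from -0.47 to -0.24; the split of called genes in metastatic marrow was 96 higher and 20 lower in place of 74 and 33. It gave B2m 0.057 and Tapbp 0.19 in the first of these, H2-K1 0.023 and B2m 0.088 in the second, and B2m 0.00988 for metastasis in general macrophages. With at least 10 counts in every library, H2-D1 was -0.014 (normal marrow), B2m 0.021 (metastasis, general), and H2-K1 6.077e-05 and B2m 0.075 (metastasis, niche). By limma-voom, Psmb10 was -1.40 and Nlrc5 0.12 (normal marrow), Psmb9 -0.25 (metastatic marrow), Psmb9 0.54 and Psmb10 1.65 (metastasis, general), and Tap1 0.061 and Psmb10 1.42 (metastasis, niche).

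Leaving out a library changed these signs. Niche against general, normal marrow: B2m -0.12 to 0.046, H2-D1 -0.022 to 0.33, Nlrc5 -0.41 to 0.36, Psmb10 -6.10 to 2.53, Psmb8 -0.71 to 0.47, Tap2 -1.05 to 0.059. In metastatic marrow: B2m -0.56 to 0.031, H2-D1 -0.47 to 0.0038, Nlrc5 -0.029 to 0.76, Psmb10 -0.83 to 0.29, Tap1 -0.049 to 0.61, Tapbp -0.22 to 0.18. Metastasis in general macrophages: B2m -0.23 to 0.080, H2-K1 -0.23 to 0.10, Psmb10 -0.81 to 1.00, Psmb9 -0.95 to 0.32, Tap1 -0.16 to 0.89. In niche macrophages: B2m -0.55 to 0.039, Psmb10 -2.41 to 5.58, Psmb8 -0.52 to 0.61, Tap2 -0.13 to 0.98. With no change of sign, Psmb8 ran from 0.10 (without niche library 3) to 1.15 (without general library 3) in metastatic marrow, and for metastasis in general macrophages from -1.26 (without metastatic library 3) to -0.16 (without normal library 1). The other member values that kept their sign but moved by over 1.5 times on the log2 scale, none of them a call, were H2-K1 0.35 to 0.71 and Tapbp 0.11 to 0.40 (normal marrow), H2-K1 0.23 to 0.54 and Psmb9 0.11 to 0.99 (metastatic marrow), H2-D1 -0.62 to -0.13, Nlrc5 -1.43 to -0.67, Tap2 0.49 to 1.14 and Tapbp -0.60 to -0.25 (metastasis, general), and H2-K1 -0.38 to -0.022, Nlrc5 -1.06 to -0.27 and Tap1 -0.82 to -0.033 (metastasis, niche), beside Tap1 in normal marrow and the H2-D1 interaction, given above. Among the log2 ratios, Psmb10 to Psmb7 ran from -1.02 to 2.02 (metastasis, general), -1.27 to 2.79 (metastatic marrow) and -3.25 to 0.69 (normal marrow), Psmb8 to Psmb5 from -1.08 to 1.85 (metastasis, niche) and -0.041 to 2.42 (normal marrow), and Psmb9 to Psmb6 from -1.13 to 0.44 (metastasis, general). With no change of sign, Psmb8 to Psmb5 ran from 2.64 to 5.66 (metastatic marrow) and Psmb9 to Psmb6 from 1.03 to 2.01 (metastatic marrow) and 3.87 to 6.93 (normal marrow).

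Deviations from the group mean correlated over genes at -0.0046 to 0.024 between same-numbered libraries and at -0.034 to 0.020 between differently numbered ones. With replicates spread this widely, such values cannot tell whether the numbers pair libraries. With a replicate block, 119 genes were called in metastatic marrow and 3 for metastasis in general macrophages, 0 of them members, and Psmb9 was 0.12 and Psmb10 0.55 in the latter. No paired analysis was run for the comparisons with niche macrophages from normal marrow, because their replicate numbers differ between the table and the sample titles.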
